A study of Homo sapiens with 15 samples.

Results

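The subunits of the transcription factor AP-1 and the early growth response factors were followed in MT-2, a line of CD4+ T cells that carries and was transformed by HTLV-1, under ascorbic acid (AA) and interferon-α (IFN-α). The 10 genes were taken by symbol from the array annotation: JUN, JUNB and JUND, FOS, FOSB, FOSL1 and FOSL2, BATF, EGR1 and EGR2. Of these, 9 had a transcript cluster, the unit for which the Affymetrix Human Gene 1.0 ST Array gives 1 value, each with 1 cluster among 28926. EGR2 had no cluster under its symbol in the annotation used, and its expression was not analysed here. Cells were cultured for 48 hours with 10 µg/ml AA (low dose), 50 µg/ml AA (intermediate dose), 100 µg/ml AA (high dose) or 1000 IU/ml IFN-α2A, or left untreated. All groups shared the same cell line, medium and time of harvest, and no genetic change or further agent distinguished them. Each condition was present once in each of 3 experiments, which gave 15 arrays. The tags of experiments 2 and 3 differ by a letter only and experiment 1 carries another tag, so experiments 2 and 3 may be less independent of each other. A single transformed line limits what the values say of T cells in general, and in a bulk culture fewer expressing cells and less RNA per cell cannot be told apart.

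AP-1 is a dimer of basic leucine zipper proteins that joins a JUN protein to another JUN, to a FOS family member or to BATF. FOS, FOSB, JUNB and EGR1 are among the immediate early genes, and their messages are short-lived. Such genes are transcribed within minutes of growth or stress signals through MAP kinases, the serum response factor and factors of the CREB family. In HTLV-1-transformed T cells AP-1 activity is high without stimulation: the viral activator Tax acts through CREB and the serum response factor, and the viral protein HBZ binds JUN proteins.

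The sequence just before the transcription start was available for 8 of the 9 measured genes, in RefSeq windows of GRCh38.p14 that run from 250 bases before the start to 50 after it. The core of the cAMP response element, TGACG on either strand, occurred in 7 of these 8 windows, against 24.6% of 35116 promoter windows of the same length. In 4 genes a core lay in almost the same place, counted in bases from the start. Its first base was at -64 in FOS, -60 in FOSB, -66 in EGR1 and -66 in FOSL2. The share of all windows with a core in that place was not counted, so the placement is not shown to be particular to these genes. EGR1 and FOSL2 had a further core, at -135 and at -201. BATF was the 1 gene without a core. The 140 bases before the start are shown for these 5 genes, because they carry that shared placement and the exception, with the TGACG core and, in EGR1, the CArG box bound by serum response factor in capitals. A core on the opposite strand reads CGTCA.
FOS (chr14:75278688-75278827, plus strand): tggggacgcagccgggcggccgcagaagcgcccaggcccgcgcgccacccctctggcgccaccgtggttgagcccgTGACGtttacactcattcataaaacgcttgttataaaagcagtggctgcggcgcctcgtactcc
FOSB (chr19:45467856-45467995, plus strand): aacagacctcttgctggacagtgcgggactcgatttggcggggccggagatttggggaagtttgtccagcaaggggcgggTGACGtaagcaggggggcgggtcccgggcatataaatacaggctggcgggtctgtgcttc
EGR1 (chr5:138465339-138465478, plus strand): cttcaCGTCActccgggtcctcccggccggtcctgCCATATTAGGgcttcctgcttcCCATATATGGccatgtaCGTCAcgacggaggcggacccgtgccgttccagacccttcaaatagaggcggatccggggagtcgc
FOSL2 (chr2:28392718-28392857, plus strand): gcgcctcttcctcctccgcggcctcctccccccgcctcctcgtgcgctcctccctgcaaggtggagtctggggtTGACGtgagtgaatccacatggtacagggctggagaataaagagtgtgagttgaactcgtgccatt
BATF (chr14:75522329-75522468, plus strand): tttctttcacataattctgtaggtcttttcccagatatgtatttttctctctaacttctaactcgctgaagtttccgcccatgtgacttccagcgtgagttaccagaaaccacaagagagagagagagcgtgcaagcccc

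A CArG box (CC, then 6 bases of A or T, then GG) was found among the measured genes in EGR1 alone, at -105 and -83, against 1.29% of all windows. For EGR2, the member without array values, 3 windows were searched. A CArG box at -71 and cores at -110 and -54 lay in the same window, and the other windows of EGR2 held neither. The JUN genes had their cores farther out, at -123 in JUN and at -137 in JUNB. JUND had cores at -200, -197 and -86, and the first lay in the complete palindrome TGACGTCA, which overlaps the second and occurs in 1.85% of all windows. JUN is shown as the gene with the largest mean difference between high-dose AA and untreated cells, described below, with its core in capitals.
JUN (chr1:58784048-58784187, minus strand): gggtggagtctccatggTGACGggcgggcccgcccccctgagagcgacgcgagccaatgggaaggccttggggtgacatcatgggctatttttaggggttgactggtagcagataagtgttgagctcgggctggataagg
Among the measured genes the AP-1 site TGANTCA was found in FOSL2 alone, at 5 bases past the start (7.71% of all windows). An EGR site GCGNGGGCG was found in EGR1 alone, at -198 (9.43%). EGR2 had such a site at 9, in a window other than that of its CArG box. The core of the interferon-stimulated response element was searched as 2 copies of GAAA with any 2 bases between them. It was found in none of the 8 (3.57%). All motifs were searched on both strands, and TGACG was added to the motifs after the array results were known. These are matches of letters and not measured sites.

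The log2 values of all 9 genes lay above the lower quartile of all clusters on every array. This does not by itself show expression, since most markers of other cell types lay above it too. Only 1 of 5 B cell, 1 of 6 monocyte and 2 of 7 NK and cytotoxic cell markers lay below it on all arrays. In untreated cells CD22 of the B cell list averaged 7.70 and FOSB 7.67, so the threshold does not settle whether the dimmer members were expressed. In untreated cells EGR1, a zinc finger factor of the early growth response family, gave 11.93, 12.28 and 12.27, and JUNB gave 11.05, 11.25 and 11.28. JUND, the most constitutively expressed JUN gene in many cells, gave 10.21, 10.28 and 10.21. Median percentiles among the clusters of an untreated array were 99.1 for EGR1, 97.4 for JUNB, 93.2 for JUND, 87.3 for JUN and 85.3 for BATF. The FOS family followed at 81.2 for FOSL1, 70.6 for FOS, 69.2 for FOSL2 and 64.7 for FOSB. Probes differ in brightness, so this order describes signals and does not rank the messages.

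**Figure D1:**
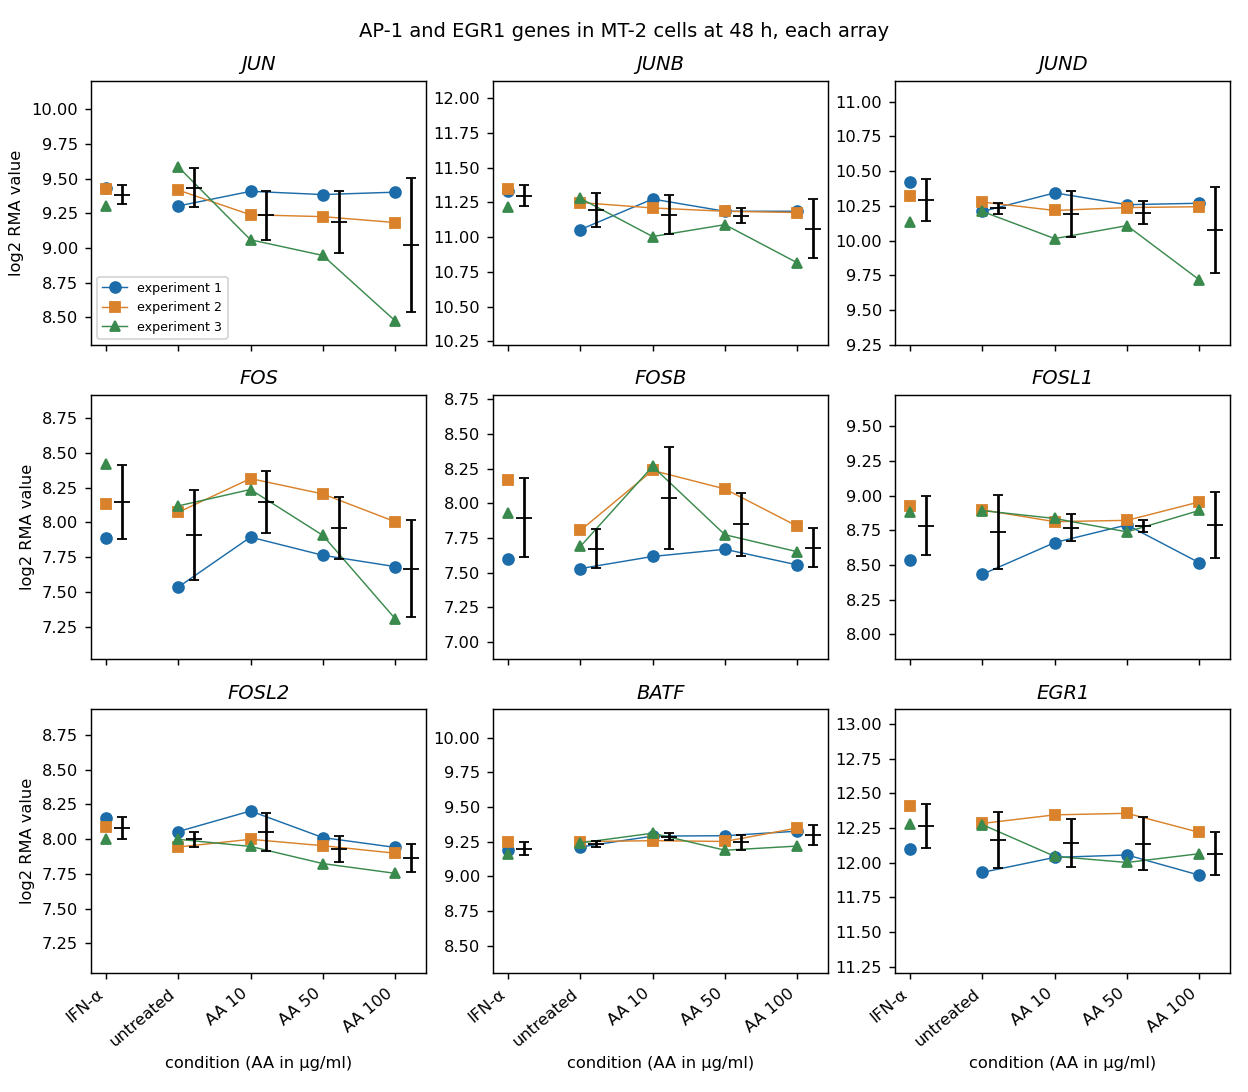
Log2 RMA values of the 9 genes on each of the 15 arrays, with conditions on the x axis and lines joining the untreated and AA arrays of 1 experiment, and with black bars for mean ± SD (n = 3). JUN, JUNB and JUND of experiment 3 end lowest at 100 µg/ml AA, and FOS, FOSB, FOSL1 and EGR1 of experiment 1 lie low in most conditions.

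No measured gene passed the study's threshold, an unadjusted p under 0.001 by limma, in any comparison of a treatment with untreated cells. The clusters that did so made up 0.259% of all clusters with high-dose AA, 0.0311% with the intermediate dose, 0.0207% with the low dose and 0.28% with IFN-α. After Benjamini-Hochberg adjustment over all clusters, adjusted p of the 9 genes ran between 0.452 and 0.991 for high-dose AA. It was 0.9998 or more for every gene at the lower doses and under IFN-α, where 0.221% of clusters had an adjusted p under 0.05. In the limma F test over all treatments 0.363% of clusters passed p under 0.001, 4.58% p under 0.05 and 0.228% the adjusted threshold, and no member passed any of them. The line responded to IFN-α: 9 of 10 interferon-stimulated genes chosen as a check were called, with a median log2 difference of 3.22, and the antiviral enzyme OAS2 averaged 10.41 ± 0.13 in treated and 5.63 ± 0.12 in untreated cells (SD, n = 3 each). Of 12 T cell markers 7 lay above the median of the untreated arrays, led by IL2RA, CCR4 and CD4. The CD3 genes lay lower, at mean percentiles of 31.7 for CD3D, 25.3 for CD3E and 25.1 for CD3G. The B cell marker MS4A1 and the monocyte marker LYZ stayed below the lower quartile on all 15 arrays. In contrast, CD22 of the B cell list (64.8) and CD68 of the monocyte list (59.9) lay above the median. In the untreated arrays 2 of 5 B cell markers, 2 of 6 monocyte markers and 2 of 7 NK and cytotoxic cell markers lay above the median.

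**Figure D2:**
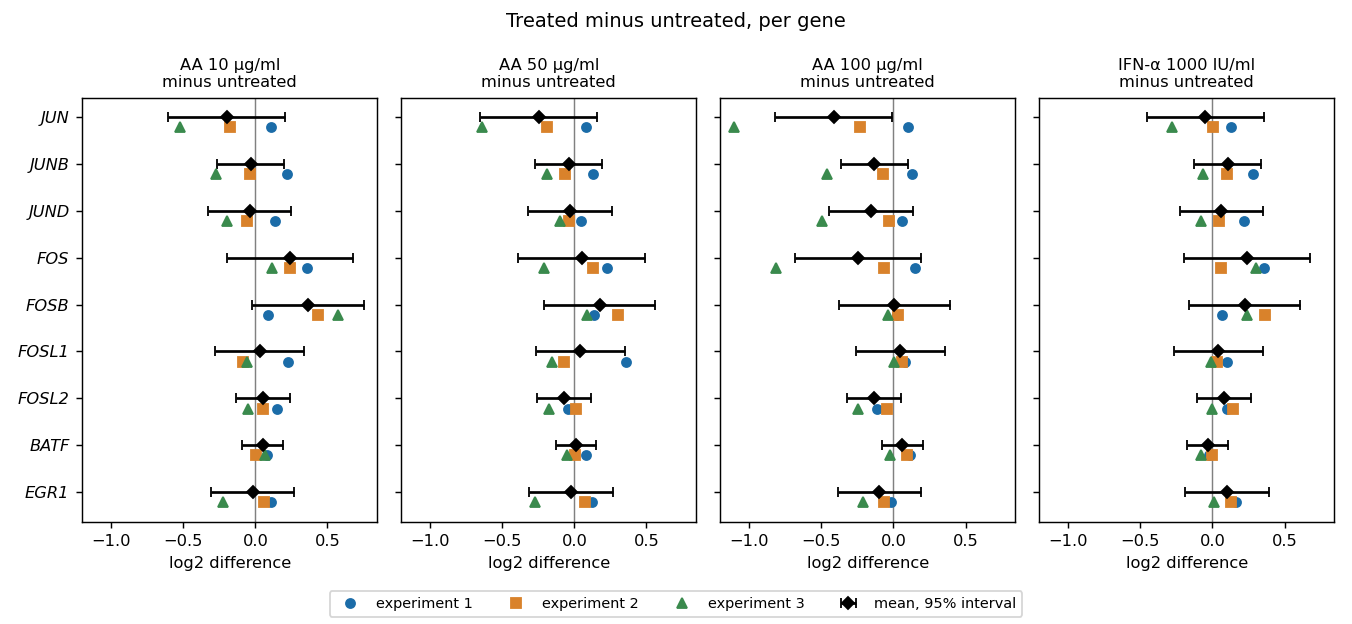
Log2 difference between treated and untreated cells for each gene (rows) and treatment (panels), with diamonds and bars for the limma estimate and its 95% confidence interval, and with coloured symbols for the 3 experiments. Only the interval of JUN at 100 µg/ml AA leaves out 0 (-0.41, from -0.82 to -0.008), and its 3 experiments stand at 0.10, -0.23 and -1.11.

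JUN, the founding AP-1 subunit, gave 9.30, 9.42 and 9.58 in untreated cells of experiments 1, 2 and 3. It gave 9.41, 9.24 and 9.06 with low-dose AA and 9.38, 9.23 and 8.95 with the intermediate dose. High-dose AA gave 9.40, 9.18 and 8.48, and IFN-α gave 9.43, 9.42 and 9.30. In experiment 3 each AA dose lay below the untreated array, in experiment 2 by less, and in experiment 1 all doses lay slightly above it. The means were 9.02 ± 0.48 with high-dose AA and 9.43 ± 0.14 in untreated cells (SD, n = 3 each), a log2 difference of -0.41 (SE 0.189, limma adjusted p = 0.452). It was the only member with an unadjusted p under 0.05 in that comparison, where 11% of all clusters had such a p (16.2% with the experiment as a fixed block and 14.8% as a random block, again with JUN alone). The difference rested on the high-dose array of experiment 3, without which it was -0.14 (adjusted p = 0.9999), with the untreated array of that experiment kept. That array stood apart across all clusters, with a mean correlation of 0.976 with the other arrays, which themselves averaged between 0.991 and 0.995. In experiment 3 the clusters above the upper quartile of mean signal had a median change of -0.19 at the high dose, and 1.87% of them lay as far below their untreated value as JUN or farther. At the intermediate dose, which does not use that array, the change of JUN in experiment 3 was -0.64 and 0.498% of those clusters lay as far below. All changes in experiment 3 share its untreated array, whose 9.58 was the highest of the 15 JUN values. The IFN-α array of experiment 3 lay below it too, by -0.28.

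JUNB and JUND showed the same order of experiments, with smaller sizes than JUN in experiments 2 and 3. JUNB gave 11.19, 11.18 and 10.82 with high-dose AA, against 11.05, 11.25 and 11.28 in untreated cells, and the log2 difference was -0.13 (SE 0.108, adjusted p = 0.626). JUND gave 10.27, 10.24 and 9.72 with high-dose AA, against 10.21, 10.28 and 10.21 in untreated cells, a log2 difference of -0.16 (SE 0.135, adjusted p = 0.652). Both sets of arrays overlapped, and both differences came from experiment 3. Without its high-dose array, but with its untreated array kept, they were -0.01 for JUNB and 0.02 for JUND. Under IFN-α the log2 differences of JUN, JUNB and JUND from untreated cells were -0.05, 0.10 and 0.06 (adjusted p 0.9998 or more for each).

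Among the FOS genes, FOSB gave the largest difference at the low dose. FOSB, which dimerizes with JUN proteins and is induced like FOS, gave 7.62, 8.24 and 8.27 with low-dose AA, against 7.53, 7.80 and 7.69 in untreated cells. It lay higher in 3 of 3 experiments, as 15.8% of all clusters did, by 0.09, 0.43 and 0.58. The values of both groups overlapped, with experiment 1 low in each. The log2 difference was 0.37 (SE 0.181, adjusted p = 0.9999), a size that 1.67% of all clusters reached. With the experiment as a fixed block the same difference had an unadjusted p under 0.005 and an adjusted p of 0.9997, so that 1 member passed an unadjusted p under 0.05 with the block and 0 without it, where 4.58% and 2.54% of all clusters did so. FOSB passed it with a random block too (3.88% of clusters). The difference became smaller along the dose series, with FOSB means of 7.67 ± 0.14 in untreated cells, 8.04 ± 0.37 at the low, 7.85 ± 0.23 at the intermediate and 7.68 ± 0.14 at the high dose. Under IFN-α, FOSB gave 7.60, 8.17 and 7.93, higher than untreated in 3 of 3 experiments (9.47% of all clusters), with a log2 difference of 0.22 (SE 0.181). It was the single member with an unadjusted p under 0.05 under IFN-α with the fixed block (2.07% of clusters), and no member had such a p with the random block (1.91%) or without a block (1.39%).

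FOS, the prototype of the family, was not called at any dose. FOS gave 7.89, 8.32 and 8.24 at the low dose, 7.76, 8.20 and 7.91 at the intermediate dose and 7.68, 8.01 and 7.31 at the high dose, against 7.53, 8.07 and 8.12 in untreated cells. The low-dose array lay above the untreated one in 3 of 3 experiments (15.8% of all clusters), and the high-dose array in experiment 1 only. The log2 differences were 0.24 at the low and -0.24 at the high dose (SE 0.204 for each). Without the high-dose array of experiment 3 the high-dose difference was -0.07. FOSL1, known as FRA1 and lacking the activation domain of FOS, differed from untreated cells by between 0.03 and 0.05 on the log2 scale in all 4 treatments (SE 0.144 for each). Its condition means spanned 0.05 in all. The experiments behind these means did not all go the same way, with 0.36, -0.08 and -0.15 at the intermediate dose. FOSL2, known as FRA2 and known to be abundant in adult T-cell leukemia, gave 7.94, 7.90 and 7.75 with high-dose AA, against 8.05, 7.94 and 8.00 in untreated cells. These values did not overlap, as in 10.5% of all clusters, although the log2 difference was only -0.13 (SE 0.0876, adjusted p = 0.554). At the intermediate dose no member had an unadjusted p under 0.05, where 2.34% of clusters did.

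BATF, a small AP-1 factor of T cells that pairs with JUN proteins and binds DNA with IRF4, was the steadiest. Its 15 values lay between 9.16 and 9.35. It gave 9.29, 9.26 and 9.31 at the low dose, against 9.21, 9.25 and 9.24 in untreated cells, without overlap (11.6% of all clusters) but with a log2 difference of 0.05 (SE 0.0656). The 95% intervals of its 4 treatment differences all lay between -0.17 and 0.20, so a change of the size of FOSB at the low dose was outside each of them. EGR1 gave 11.91, 12.22 and 12.06 with high-dose AA, against 11.93, 12.28 and 12.27 in untreated cells. Its log2 differences were -0.02 at the low, -0.02 at the intermediate and -0.10 at the high dose, and 0.10 under IFN-α.

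Over the AA dose series, fitted as a line on the 12 arrays without IFN-α, no member was called at p under 0.001 (0.245% of clusters). FOSL2 alone had an unadjusted p under 0.05, with a slope of -0.17 on the log2 scale per 100 µg/ml (SE 0.0771, adjusted p = 0.435), where 11.5% of clusters did so. With the fixed block 3 members had such a p, JUN, FOS and FOSL2, all lower with dose (15.9% of clusters), and with the random block JUN and FOSL2 did (14.6%). Without the high-dose array of experiment 3 the slope was -0.11 for JUN, -0.16 for FOS and -0.12 for FOSL2 (adjusted p = 0.993 for FOSL2), against -0.34, -0.34 and -0.17 with it.

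High-dose AA was next compared with IFN-α. No member was called at p under 0.001 (0.65% of clusters) or at an adjusted p under 0.05 (0.325%). Of the 9 genes, 7 were lower with high-dose AA than with IFN-α in each of the 3 experiments, namely JUN, JUNB, JUND, FOS, FOSB, FOSL2 and EGR1, against 15.3% of all clusters. This count was chosen after the values were seen, and the genes share the same arrays, so they are not independent of each other. The median log2 difference over the 9 genes was -0.22, and over all clusters 0.03. By experiment, the medians of the 9 genes were -0.15, -0.17 and -0.28 in experiments 1, 2 and 3. Clusters above the upper quartile of mean signal had medians of 0.04, -0.002 and -0.16, so in experiment 3 bright clusters were lower as well. FOS, FOSB and FOSL2 had mean signals below that quartile, so these medians are not matched to them in brightness. Of the 7 genes, EGR1 was the most even, with differences of -0.19, -0.19 and -0.22 in experiments 1, 2 and 3. FOSL2 gave -0.21, -0.19 and -0.25, and its values of 7.94, 7.90 and 7.75 with high-dose AA did not overlap those of 8.15, 8.09 and 8.00 with IFN-α. JUNB did not overlap either, with 11.19, 11.18 and 10.82 with high-dose AA and 11.33, 11.35 and 11.21 with IFN-α (11.2% of all clusters). FOS had the largest mean difference, -0.48 (SE 0.204, adjusted p = 0.380), made of -0.21, -0.13 and -1.12. An unadjusted limma p under 0.05 held for 3 members, JUNB (-0.24), FOS and FOSL2 (-0.22), where 12.1% of clusters passed, and their adjusted p ran from 0.373 to 0.401. With the experiment as a fixed block it held for 6, with JUN, JUND and EGR1 in addition and 17.6% of clusters, and the adjusted p of these 6 ran from 0.148 to 0.268. With a random block it held for JUNB, FOS and FOSL2 alone (16.2% of clusters). Without the high-dose array of experiment 3 none of these 3 kept such a p, and their differences were -0.12 for JUNB, -0.31 for FOS and -0.16 for FOSL2. BATF lay higher with high-dose AA in 3 of 3 experiments, as 20.5% of all clusters did, by 0.10 on average (limma adjusted p = 0.548). FOSL1 differed by 0.01 (95% interval -0.30 to 0.31).

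Calls among these genes were found between the experiments. In the limma F test over experiments, within conditions, FOSB (adjusted p = 0.024) and EGR1 (adjusted p = 0.0348) were called at an unadjusted p under 0.001 and at an adjusted p under 0.05, which 2.78% and 3.86% of all clusters reached. Of the 9 genes, 6 had an unadjusted p under 0.05 (all but JUN, JUNB and BATF), against 22.7% of clusters. FOSB lay lowest in experiment 1 in 5 of 5 conditions, with values of 7.53 to 7.67 there, against 7.80 to 8.24 in experiment 2 and 7.65 to 8.27 in experiment 3. FOS, FOSL1 and EGR1 lay lowest in experiment 1 in 4 of 5 conditions. The share of all clusters that lay lowest in experiment 1 so often was not counted. A contrast of experiment 1 with the mean of the other experiments was added after these low values were seen. It gave -0.35 for FOSB (SE 0.0683, adjusted p = 0.0121), -0.28 for FOSL1 (SE 0.0637, adjusted p = 0.0261), -0.22 for EGR1 (adjusted p = 0.0339) and -0.32 for FOS (adjusted p = 0.107). JUND and FOSL2 went the other way, by 0.15 (adjusted p = 0.190) and 0.13 (adjusted p = 0.109). The shares of all clusters were 3.56% at p under 0.001, 21.6% at p under 0.05 and 5.44% at an adjusted p under 0.05. What differed between the experiments was not tested. The call at an unadjusted p under 0.001 was lost for FOSB without the low-dose AA or the IFN-α array of experiment 1 and for FOSL1 without any 1 of 13 of the 15 arrays. FOS passed it without the high-dose array of experiment 3, at -0.39.

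**Figure D3:**
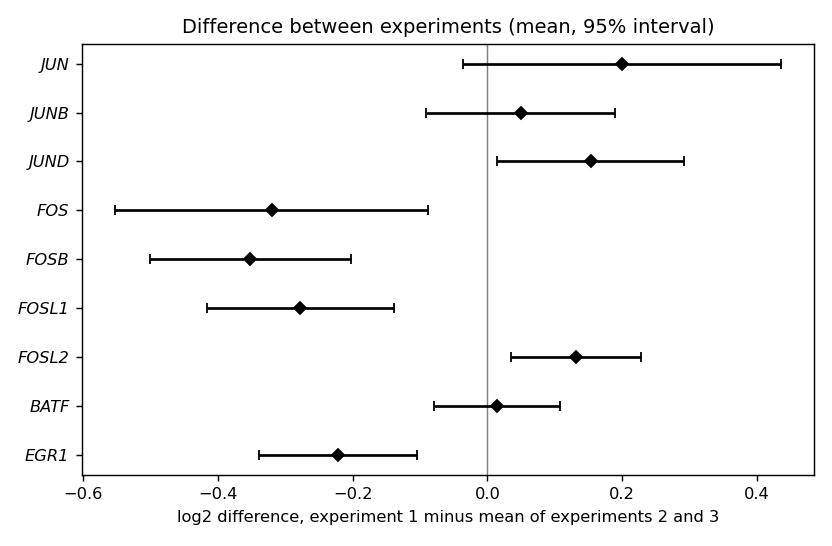
Log2 difference of experiment 1 from the mean of experiments 2 and 3 within conditions for each gene, with bars for the 95% confidence interval. FOS, FOSB, FOSL1 and EGR1 lie below 0 (-0.22 to -0.35), JUND and FOSL2 lie above it (0.15 and 0.13), and BATF is at 0.01.

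The genes formed sets that varied together over the 15 arrays. Pearson's r was 0.883 for JUN with JUNB, 0.882 for JUN with JUND and 0.907 for JUNB with JUND, and 0.769 for JUND with FOSL2. A further set held FOS with FOSB (0.742), FOS with EGR1 (0.706), FOSL1 with EGR1 (0.710) and FOSB with EGR1 (0.651). Without the high-dose array of experiment 3 the JUN pairs were at 0.738, 0.669 and 0.794 and the FOS and EGR1 pairs at 0.799, 0.778, 0.766 and 0.641. Over the values as deposited BATF had r of at most 0.16 in size with every other member. After the mean of each condition was subtracted, BATF had r of 0.743 with JUN, 0.654 with JUND, 0.641 with JUNB and 0.513 with FOSL2, and 0.477, 0.291, 0.327 and 0.326 without that high-dose array. Arrays share experiments, conditions and overall signal, so these values describe the arrays and carry no p. Among 16324 clusters with 1 symbol and a mean above the lower quartile, the likest genes by Pearson's r over the 15 arrays were TNIP1 (0.976) and NUAK2 (0.974) for JUN, RUNX3 (0.966) and N4BP1 (0.962) for JUNB, and THBS3 (0.976) and ECH1 (0.969) for JUND. They were PRKY (0.901) and NOTCH1 (0.896) for FOS, GPX1 (0.871) and HOMER2 (0.847) for FOSB, COMTD1 (0.858) and SLC4A11 (0.855) for FOSL1, WIPI1 (0.929) and LITAF (0.910) for FOSL2, TYRO3 (0.910) and ITM2C (0.880) for BATF, and ONECUT2 (0.934) and STARD5 (0.900) for EGR1.

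**Figure D4:**
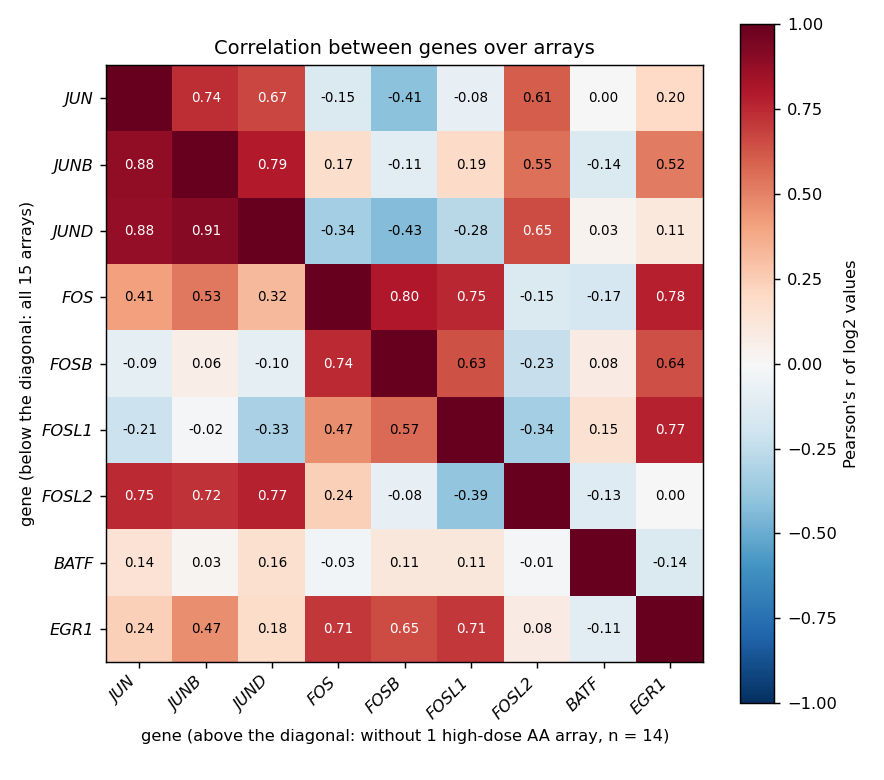
Pearson's r between the log2 values of each pair of genes, over all 15 arrays below the diagonal and over 14 arrays above it, without the high-dose AA array of experiment 3. The JUN genes form 1 block (0.88 to 0.91 below the diagonal) and FOS, FOSB and EGR1 another (0.65 to 0.74), while BATF lies between -0.11 and 0.16 below the diagonal.

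The spread between arrays of 1 condition was widest for FOS, with an SD within conditions of 0.283, then JUN (0.260) and FOSB (0.248). It was 0.191 for FOSL1, 0.177 for EGR1, 0.176 for JUND, 0.133 for JUNB and 0.096 for FOSL2. Clusters with a mean signal above the median had a median SD of 0.140. BATF, at 0.047, lay below all but 0.761% of these 14463 clusters, so that the range of all its values, 0.19, was smaller than the within-condition SD of FOS. For FOSB, FOSL1, EGR1 and JUND the means of the experiments spanned more than the means of the conditions: 0.44 against 0.37 for FOSB, 0.29 against 0.05 for FOSL1, 0.32 against 0.20 for EGR1 and 0.26 against 0.22 for JUND.

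**Figure D5:**
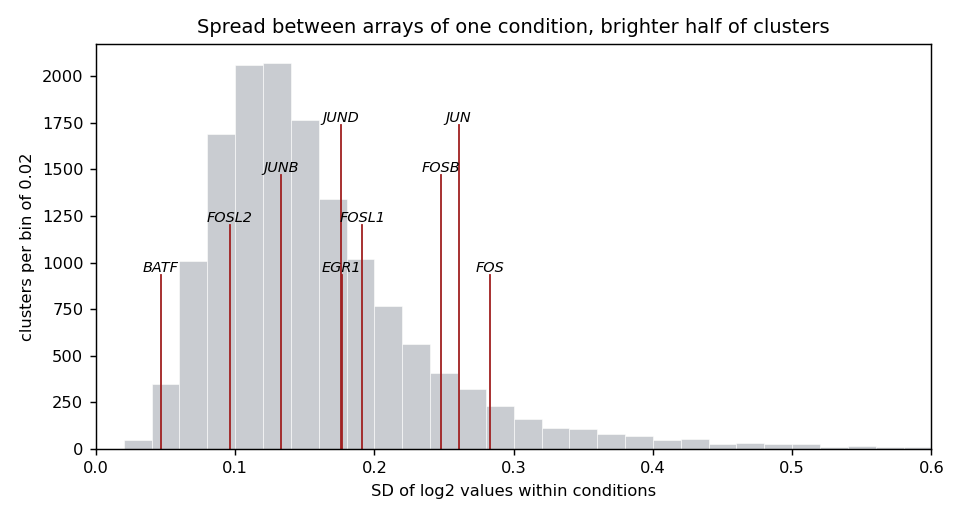
Number of clusters (y axis) by the SD of log2 values within conditions (x axis, bins of 0.02) in clusters with a mean signal above the median, with a line for each gene. BATF stands at the low edge at 0.047 and FOS, JUN and FOSB in the upper tail at 0.283, 0.260 and 0.248.

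The genes around AP-1 were counted with the same limma fit. Of 14 other leucine zipper genes measured, none was called at p under 0.001 in a comparison with untreated cells. With high-dose AA 3 of the 14 had an unadjusted p under 0.05, where 11% of all clusters did. Lower values were found for NFE2L1, a stress-responsive factor (9.70 ± 0.49, against 10.31 ± 0.19 in untreated cells, log2 difference -0.60, adjusted p = 0.422), and ATF3, a stress-induced partner of JUN (7.24 ± 0.10, against 7.54 ± 0.12 in untreated cells, -0.29, adjusted p = 0.422). BATF2 was higher at that threshold (7.29 ± 0.13, against 7.05 ± 0.05 in untreated cells, 0.24, adjusted p = 0.441). Without the high-dose array of experiment 3 these differences were -0.32, -0.24 and 0.16, and BATF2 no longer passed it. Between high-dose AA and IFN-α, ATF3 was called at p under 0.001 with lower values (7.24 ± 0.10, against 7.71 ± 0.15 with IFN-α, -0.46, limma adjusted p = 0.0559), the only such call among the 14, and -0.41 without that array. Of 4 measured genes that act with BATF in T cells, none had an unadjusted p under 0.05 in a comparison with untreated cells, and with high-dose AA IRF4, the factor that binds DNA together with BATF, gave 12.26 ± 0.20, against 12.45 ± 0.08 in untreated cells. The repressor PRDM1 (-0.20, adjusted p = 0.463) and BATF3 (-0.18, adjusted p = 0.526) were likewise not called. PRDM1 passed that threshold between high-dose AA and IFN-α (-0.32, limma adjusted p = 0.285) and in the F test over treatments, and IRF4 in the slope on dose (-0.18, -0.07 without the high-dose array of experiment 3). Of 5 other EGR family genes and their corepressors, EGR4 had an unadjusted p under 0.05 at the low dose (0.26, adjusted p = 0.9999), and neither WT1 nor NAB1 did in any treatment.

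Of 23 other immediate early genes measured, none had an unadjusted p under 0.05 in any of the 4 treatments. With high-dose AA 4 of the 23 were higher, and the median log2 difference was -0.09, against 0.02 over all clusters. Clusters above the upper quartile of mean signal had medians of 0.08, -0.01 and -0.19 in experiments 1, 2 and 3 at that dose. Among the 23 genes the smallest p belonged to ZFP36, which degrades AU-rich messages (-0.47, adjusted p = 0.477), ID1 (-0.31) and the kinase PIM1 (-0.42), all with high-dose AA. The serum response factor group (5 measured) held 1 gene with an unadjusted p under 0.05, the ternary complex factor ELK4 at the intermediate dose (-0.15, adjusted p = 0.9998), beside MRTFB and ELK1 without one. Of 12 MAP kinases measured, MAP2K6, which activates p38, was higher with high-dose AA at that threshold (0.27, adjusted p = 0.439), but not without the high-dose array of experiment 3 (0.20). MAP3K1 had -0.33 there and MAPK8, which encodes JNK1, had -0.15 at the intermediate dose, both above it. Of 13 phosphatases and feedback inhibitors of these kinases 2 were higher with high-dose AA, with a median of -0.16, and DUSP4 alone had an unadjusted p under 0.05 there (9.41 ± 0.33, against 9.68 ± 0.09 in untreated cells, adjusted p = 0.456, and -0.08 on the log2 scale without the high-dose array of experiment 3). DUSP2 gave -0.50 with high-dose AA and SPRY4 -0.18 at the intermediate dose, neither past it. Among 21 measured genes known as AP-1 targets, CD69, an early activation antigen, was called with high-dose AA, at 5.07 ± 0.25, against 4.43 ± 0.19 in untreated cells (0.64, adjusted p = 0.26), with a signal below the lower quartile of clusters. CD69 also had an unadjusted p under 0.05 at the intermediate dose (0.30) and under IFN-α (0.28), with adjusted p of 0.9998 or more. With high-dose AA, SPP1 was higher (0.26) and GADD45B, a stress-induced gene, lower (-0.27) at that threshold, and ICOS passed it at the low dose (-0.22). Without the high-dose array of experiment 3 SPP1 and GADD45B were at 0.13 and -0.10 and did not pass. GADD45B and the values between high-dose AA and IFN-α or along the dose were added after they were seen. These lists were chosen with earlier results of these data known, and their counts are no independent support for a direction.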

How the data were processed

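RNA of MT-2 cells was hybridised to 15 Human Gene 1.0 ST arrays, 3 for each of 5 conditions, and per the labels the triplicates came from 3 separate RNA experiments. The deposited values are log2 expression made by the authors with RMA (background correction, quantile normalization and summarization of probes) in xps, and they were used as they stand. Symbols came from the array annotation: 19310 carry 1 symbol, 1752 several and 7864 none. Promoters came from RefSeq (GRCh38.p14), and FOSL1 had no window.

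All clusters were fitted with limma 3.58.1 in R 4.3.3 (statmod 1.5.0), in 1 model of the 5 conditions with 10 residual and 3.91 prior degrees of freedom. Tests were two-sided, and calls were made at an unadjusted p under 0.001, which is what the study's methods use and where 28.9 calls per comparison are expected by chance. Benjamini-Hochberg adjustment ran over all clusters. The slope on dose used the 12 AA and untreated arrays. The title tag is shared by 1 array of each condition and so pairs the arrays: deviations from condition means correlated at a median of 0.281 over 30 pairs with the same number (-0.194 to 0.536) and of -0.172 over 60 pairs with different numbers. The experiment was added as a fixed or random block as an alternative, since the study's methods use none.

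The genes, lists and tests were chosen with earlier results of these data known. Genes named beyond the members are up to 3 per list with the smallest p over the 4 treatments, and the 2 genes most correlated with each member. Alternatives were filters on dim or multi-symbol clusters, robust and trended variance, cyclic loess, median centring, array weights, models of the compared groups alone, other thresholds, and leaving out arrays and experiments. The fit was tested on simulated data. The number of arrays limits precision. Figures were drawn with matplotlib 3.10.9. Raw intensities were not analysed here.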

Additional observations from a re-analysis of the deposited data

Results flagged for a closer look

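The JUN genes went opposite ways in different experiments. Averaged over the 3 AA arrays of an experiment and set against its untreated array, JUN changed by 0.0956 in experiment 1, by -0.201 in experiment 2 and by -0.757 in experiment 3 on the log2 scale. JUNB changed by 0.161, -0.0579 and -0.309, and JUND by 0.0808, -0.0446 and -0.263, in the same order of experiments. In each gene all 3 AA arrays lay above the untreated array in experiment 1 and below it in experiments 2 and 3, and this difference between experiments was not tested. The 3 AA arrays of an experiment share 1 untreated array. Of all clusters, 27.9% (8056 of 28926) had all AA arrays above the untreated array in any one experiment and below it in any other. That share leaves the remaining experiment free, so it is looser than the pattern of the JUN genes, for which no share was counted.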

How the results depend on the processing

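No member was called in a treatment comparison, in the dose slope, in the F test over treatments or between high-dose AA and IFN-α under any alternative run at the 0.001 threshold, the fixed and the random block included, and blocked log2 differences equalled the main ones (-0.41 for JUN with high-dose AA, adjusted p = 0.251 with the fixed block). At p under 0.05 the counts without a block were 1 with high-dose AA, 3 for high-dose AA against IFN-α, 1 for the slope and 6 for the F test over experiments. That F test called 2 members, 0 after median centring and between 0 and 3 with single arrays or experiments left out. The cause was not tested. Of 1647 alternative values of log2 differences and slopes, 20 lost and 7 gained a call, all in the contrast of experiment 1 with the others, and none that was called changed sign. The sign of 71 uncalled values changed, the largest of them 0.244 in size. The block changed no other call. For JUN with high-dose AA the log2 difference ran from -0.67 to -0.07 with arrays or experiments left out, for FOS with high-dose AA from -0.44 to 0.04, and for FOSB with low-dose AA from 0.25 to 0.58. The array-weights fit gave convergence warnings. With 3 arrays per condition, 1 of the 36 intervals of treatment minus untreated left out 0.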
